A study of Homo sapiens with 8 samples.

Results

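The effect of NAT10 knockdown that SW480 and DLD-1 cells shared was measured by comparing the 4 shNAT10 libraries with the 4 shControl libraries, with the cell line as a block, so that all 8 libraries of the series were used. Read counts were summed over the transcripts of each gene, and 13619 of the 17309 genes in the table had enough reads to be tested. At an adjusted p under 0.05 (edgeR's quasi-likelihood test, Benjamini-Hochberg), 34 genes (0.25% of those tested) were lower and 27 (0.198%) were higher in shNAT10 cells. Of these 61 genes (0.448%), 60 had the same sign in each cell line fitted alone, against 52.9% of all tested genes. Being called over both lines favours equal signs, so this count is a description. SW480 and DLD-1 are established human colorectal cancer lines, both with truncated APC. Each was infected with a lentivirus carrying either a control hairpin (shControl, labelled wild type) or a hairpin against NAT10 (shNAT10, labelled NAT10 knockdown), with 2 libraries in each of the 4 groups. All groups were infected cells, and per the labels both lines were grown in DMEM with serum. The labels call the libraries biological replicates without saying that they came from separate infections. The p-values therefore measure the spread between these libraries, which may be technical. In the blocked comparison that spread also takes in any difference of the effect between the lines. Which of the study's NAT10 hairpins was sequenced, and how long after infection, is not given in the sources used here.

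NAT10 is a nucleolar acetyltransferase that writes N4-acetylcytidine (ac4C) on RNA. Its best known substrates are the small-subunit ribosomal RNA, which it also helps to process, and the serine and leucine tRNAs, which it acetylates with the adaptor THUMPD1. The mark has also been described in mRNA, where it is linked to stability and translation, and colorectal tumours are among those studied for high NAT10.

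Between 15147805 and 17271336 counts were assigned per library. Levels are given as CPM, counts scaled to library size after TMM normalisation, and effects as log2 fold changes of shNAT10 over shControl. The levels of the epithelial, immune and stromal markers are the exception, scaled to library totals without TMM. The 2 SW480 shNAT10 libraries differed from each other more than the replicates of the other groups did, with a chi-square per degree of freedom of 9.47 against 3.19 to 4.37. Of 10 colorectal epithelial markers, 9 or 10 were above 1 CPM in every group. Their summed level was 3220 to 3387 CPM in SW480 shControl, 3375 to 3882 in SW480 shNAT10, 7644 to 7850 in DLD-1 shControl and 7799.6 to 8188 in DLD-1 shNAT10. The 8 immune markers in the table summed to between 20.2 and 35.3 CPM and the 12 stromal and endothelial markers to between 5.13 and 10.4 CPM over all groups.

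Both NAT10 hairpins of the study target the coding sequence of NAT10. Their targets are shown because the libraries may carry either, with the site of guide bases 2 to 8 (the seed) in capitals.
shNAT10-1: ggccaaagctgTCTTGAAa
shNAT10-2: cagtgacgaccTAGATGAa
On GENCODE transcripts of GRCh38, the shNAT10-1 target runs from exon 8 of 29 of NAT10 into the next exon (chr11:34118503-34122476, plus strand, intron included) and the shNAT10-2 target from exon 26 into the next (chr11:34141805-34142280, plus strand, intron included). Among the 61 genes, the longest other runs of consecutive target bases all matched shNAT10-1. They were 15 bases in exon 12 of 18 of TARS2, in its coding sequence (chr1:150498911-150498925, plus strand), 14 bases in the last exon of STRN, in its 3′UTR (chr2:36847053-36847066, minus strand), and 12 bases in the last exon of HABP4, in its coding sequence (chr9:96490029-96490040, plus strand). These sites are shown with the run in capitals, since TARS2 and STRN were among the largest falls and HABP4 among the largest rises.
TARS2: agatCCAAAGCTGTCTTGAtttc
STRN: atgaGCCAAAGCTGTCTTccaa
HABP4: ctgcGCTGTCTTGAAAgagc

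NAT10 itself (Entrez gene 55226) measured 122 and 122 CPM in SW480 shControl against 23.6 and 27.9 CPM in SW480 shNAT10, and 121 and 121 CPM in DLD-1 shControl against 59.01 and 54.4 CPM in DLD-1 shNAT10. Every shNAT10 library lay below every shControl library, and the remaining level was lower in SW480 than in DLD-1. NAT10 had a log2 fold change over both lines of −1.64 (standard error 0.166, adjusted p = 0.00066, edgeR), −2.24 in SW480 alone and −1.09 in DLD-1 alone. It was the only gene whose effect differed between the lines (difference −1.16, standard error 0.118, adjusted p = 0.0015, edgeR interaction, 0.00734% of tested genes), although DESeq2 called 21 such genes. Without DLD-1 shNAT10 replicate 1 the difference was −1.10 and no longer passed, with 0 genes called, and without SW480 shNAT10 replicate 2 it was −1.29 with 370 genes called.

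All 61 genes kept their sign, and an unadjusted p under 0.05, when any of the 8 libraries was left out. The number of calls did not hold in the same way. Without SW480 shControl replicate 1 or without SW480 shNAT10 replicate 2, only NAT10 and TARS2 stayed under the adjusted limit, both lower, with 0 genes higher. Without DLD-1 shControl replicate 2 the calls were 12 lower and 9 higher, without DLD-1 shNAT10 replicate 1 they were 13 and 8, and without SW480 shControl replicate 2 they were 11 and 11. The shNAT10 libraries lay wholly on one side of the shControl libraries in both lines for 32 of the 34 genes called lower, against 6.26% of all tested genes, and for 26 of the 27 called higher, against 5.45%. These counts come from the contrast that made the calls and are a description. The 32 include ITPR1, ANKRD1 and SLC2A3, which had few reads in DLD-1. The effect was larger in SW480 than in DLD-1 for 26 of the 34 falls and 26 of the 27 rises. Larger changes in SW480 were not particular to these genes. At an unadjusted p under 0.05 (edgeR), 6.84% of all tested genes were lower and 7.35% higher in SW480 alone. In DLD-1 alone the shares were 3.4% and 3.86%. The median log2 fold change of the falls was −0.50 in SW480 and −0.32 in DLD-1, and that of the rises 0.54 and 0.28. None of the genes other than NAT10 passed the test of the difference between lines by edgeR (lowest adjusted p = 0.21 for the falls and 0.17 for the rises).

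**Figure D1:**
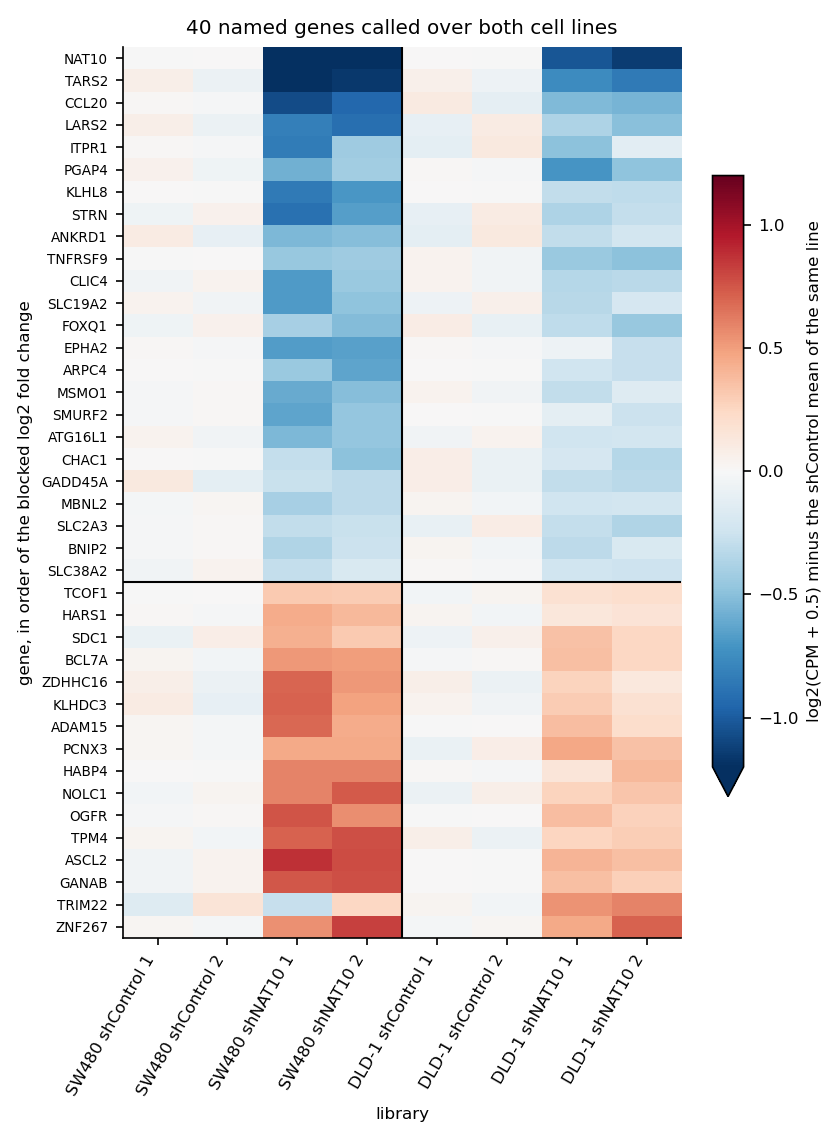
Level of the 40 called genes named by the rule (rows) in each of the 8 libraries (columns), as log2(CPM + 0.5) minus the shControl mean of the same cell line. The upper 24 genes are lower and the lower 16 higher in the shNAT10 columns, apart from TRIM22 in SW480, and colours are deeper in SW480 than in DLD-1 for most of them; values below −1.2 share the darkest blue.

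Of the 4 largest falls after NAT10, 2 were genes of mitochondrial aminoacyl-tRNA synthetases, TARS2 and LARS2. TARS2 holds the run of 15 bases of the shNAT10-1 target shown above, and a shNAT10-2 seed site in its 3′UTR. The part of these matches in its fall was not tested. TARS2, the threonyl-tRNA synthetase of mitochondria, measured 42.1 and 37.9 CPM in SW480 shControl against 14.6 and 17.6 CPM in SW480 shNAT10, and 54.6 and 50.4 CPM in DLD-1 shControl against 30.98 and 29.02 CPM in DLD-1 shNAT10. TARS2 had a log2 fold change of −1.04 (standard error 0.0960, adjusted p = 0.00039, edgeR), −1.30 in SW480 alone and −0.81 in DLD-1 alone. LARS2, which charges leucine in mitochondria, measured 43.2 and 39.2 CPM in SW480 shControl against 23.1 and 21.7 CPM in SW480 shNAT10, and 68.6 and 78.5 CPM in DLD-1 shControl against 56.8 and 51.7 CPM in DLD-1 shNAT10. LARS2 had a log2 fold change of −0.64 (standard error 0.0867, adjusted p = 0.0069, edgeR), −0.87 in SW480 alone and −0.44 in DLD-1 alone. For both genes the groups did not overlap in either line. Of 20 mitochondrial aminoacyl-tRNA synthetases tested, only these 2 were called lower by edgeR and 0 higher. At an unadjusted p under 0.05 (edgeR), 3 were lower and 1 higher. Over all tested genes 6.81% were lower and 6.34% higher at that limit, the shares to set beside the counts of every list below. The median of the mitochondrial synthetases was 0.010, against −0.006 for all tested genes. Over the alternatives this median ran from −0.014 to 0.031. The 24 cytosolic synthetases had 0 calls lower and 1 higher, HARS1, with 6 lower and 4 higher at an unadjusted p under 0.05. HARS1, the histidyl-tRNA synthetase of the cytosol, measured 175 and 172 CPM in SW480 shControl against 237 and 227 CPM in SW480 shNAT10, and 126 and 120.3 CPM in DLD-1 shControl against 135 and 138 CPM in DLD-1 shNAT10, and had a log2 fold change of 0.29 (standard error 0.0577, adjusted p = 0.047, edgeR). DESeq2 called 0 of these 24 lower and 2 higher.

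CCL20 and TNFRSF9 fell in both lines, at very different levels. CCL20, the chemokine that attracts CCR6-bearing lymphocytes and an NF-κB target, measured 4.69 and 4.57 CPM in SW480 shControl against 1.94 and 2.16 CPM in SW480 shNAT10, and 50.6 and 43.7 CPM in DLD-1 shControl against 32.5 and 31.8 CPM in DLD-1 shNAT10. CCL20 had a log2 fold change of −0.68 (standard error 0.104, adjusted p = 0.012, edgeR), −1.16 in SW480 alone and −0.55 in DLD-1 alone. TNFRSF9, the costimulatory receptor 4-1BB, measured 49.9 and 49.9 CPM in SW480 shControl against 36.2 and 36.9 CPM in SW480 shNAT10, and 11.5 and 10.8 CPM in DLD-1 shControl against 8.01 and 7.75 CPM in DLD-1 shNAT10. TNFRSF9 had a log2 fold change of −0.46 (standard error 0.0630, adjusted p = 0.0069, edgeR), −0.44 in SW480 alone and −0.49 in DLD-1 alone. These 2 genes lay apart in every pair of groups although SW480 cells held far less CCL20 and DLD-1 cells far less TNFRSF9. Among 34 tested NF-κB targets, CCL20 was the only call by edgeR, 5 were lower and 1 higher at an unadjusted p under 0.05, and 10 were below 0 and 0 above 0 in both lines, against 3528 and 3679 of the 13619 tested genes. A further 10 were above 0 in SW480 and below 0 in DLD-1 and 13 the other way round, and the list's median was −0.033.

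STRN, striatin, a scaffold of a phosphatase 2A complex, measured 99.5 and 108 CPM in SW480 shControl against 55.5 and 65.2 CPM in SW480 shNAT10, and 108 and 124 CPM in DLD-1 shControl against 89.1 and 94.9 CPM in DLD-1 shNAT10. STRN had a log2 fold change of −0.55 (standard error 0.0877, adjusted p = 0.015, edgeR), −0.77 in SW480 alone and −0.33 in DLD-1 alone. KLHL8, a substrate adaptor of cullin ubiquitin ligases, measured 29.2 and 29.1 CPM in SW480 shControl against 15.9 and 17.8 CPM in SW480 shNAT10, and 23.8 and 23.8 CPM in DLD-1 shControl against 19.3 and 19.2 CPM in DLD-1 shNAT10, with no overlap in either line. KLHL8 had a log2 fold change of −0.55 (standard error 0.0911, adjusted p = 0.018, edgeR). EPHA2, a receptor tyrosine kinase and a target of RAS-MAPK signalling, measured 174 and 170.2 CPM in SW480 shControl against 108 and 109 CPM in SW480 shNAT10, and 113 and 111 CPM in DLD-1 shControl against 107 and 92.1 CPM in DLD-1 shNAT10. EPHA2 was lower in all 4 shNAT10 libraries, and its log2 fold change was −0.42 (standard error 0.0847, adjusted p = 0.047, edgeR), −0.65 in SW480 alone and −0.17 in DLD-1 alone. CLIC4, a redox-responsive chloride channel protein, had a log2 fold change of −0.45 (standard error 0.0630, adjusted p = 0.007, edgeR), −0.55 in SW480 alone and −0.33 in DLD-1 alone. FOXQ1, a forkhead transcription factor of colorectal cancer, had one of −0.42 (standard error 0.0636, adjusted p = 0.011, edgeR), −0.45 in SW480 alone and −0.38 in DLD-1 alone. SMURF2, a ubiquitin ligase that acts on TGF-β signalling, had one of −0.38 (standard error 0.0757, adjusted p = 0.046, edgeR), and BNIP2, a BCL2-interacting protein, one of −0.28 (standard error 0.0531, adjusted p = 0.038, edgeR). ARPC4, a subunit of the actin-nucleating ARP2/3 complex, had one of −0.40 (standard error 0.0651, adjusted p = 0.017, edgeR), but its span overlaps TADA3 and a read-through gene in the table, and reads of overlapping genes cannot be told apart where the counting did not use strand. The list of 51 actin and actomyosin genes had 1 call each way by edgeR, ARPC4 lower and TPM4 higher (1 lower and 2 higher by DESeq2), with 5 lower and 5 higher at an unadjusted p under 0.05. The list of 41 RAS-MAPK output genes had EPHA2 as its only call by edgeR, with 9 lower and 6 higher at an unadjusted p under 0.05, against 6.81% and 6.34% of all tested genes.

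CHAC1, which degrades glutathione and is a target of ATF4 and CHOP, measured 60.5 and 59.8 CPM in SW480 shControl against 49.3 and 42.6 CPM in SW480 shNAT10, and 121 and 108 CPM in DLD-1 shControl against 98.7 and 89.9 CPM in DLD-1 shNAT10. CHAC1 had a log2 fold change of −0.33 (standard error 0.0640, adjusted p = 0.044, edgeR), −0.38 in SW480 alone and −0.27 in DLD-1 alone. It was the only call by edgeR among 28 genes of the integrated stress response, the pathway that raises amino acid synthesis and import through ATF4. Of these 28, 9 were lower and 0 higher at an unadjusted p under 0.05, and DESeq2 called 4 lower and 0 higher. Their median was −0.083 over both lines, 0.008 in SW480 and −0.18 in DLD-1, and the blocked median stayed below 0 under every alternative (−0.13 to −0.032). SLC38A2, a sodium-coupled importer of neutral amino acids, measured 404 and 430.1 CPM in SW480 shControl against 341 and 366 CPM in SW480 shNAT10, and 369.9 and 365 CPM in DLD-1 shControl against 310.4 and 309 CPM in DLD-1 shNAT10, and its log2 fold change was −0.24 (standard error 0.0470, adjusted p = 0.044, edgeR). It was the only call by edgeR among 23 amino acid carriers (3 lower and 0 higher by DESeq2), of which 6 were lower and 2 higher at an unadjusted p under 0.05, with a median of −0.074 (range over the alternatives −0.096 to −0.051). The carriers and the stress response list overlap, and SLC7A11 and SLC7A1 count among the lower members of both. The cystine importer SLC7A11 measured 430.3 and 454 CPM in SW480 shControl against 312 and 387 CPM in SW480 shNAT10, and 144 and 145 CPM in DLD-1 shControl against 126 and 114 CPM in DLD-1 shNAT10 and missed the limit, and its log2 fold change was −0.31 (standard error 0.0643, adjusted p = 0.054, edgeR). So did PSAT1, of serine synthesis, at −0.25 (standard error 0.0520, adjusted p = 0.056, edgeR), and ASNS, the asparagine synthetase, at −0.23 (standard error 0.0669, adjusted p = 0.16, edgeR). These last 3 genes were chosen after their values were seen. GADD45A, a p53-inducible growth arrest gene, measured 199 and 169 CPM in SW480 shControl against 152 and 147 CPM in SW480 shNAT10, and 72.7 and 64.9 CPM in DLD-1 shControl against 55.9 and 54.8 CPM in DLD-1 shNAT10, and its log2 fold change was −0.30 (standard error 0.0604, adjusted p = 0.046, edgeR). Among 31 p53 target and growth arrest genes it was the only call by edgeR, with 6 lower and 0 higher at an unadjusted p under 0.05 and a median of −0.009.

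**Figure D2:**
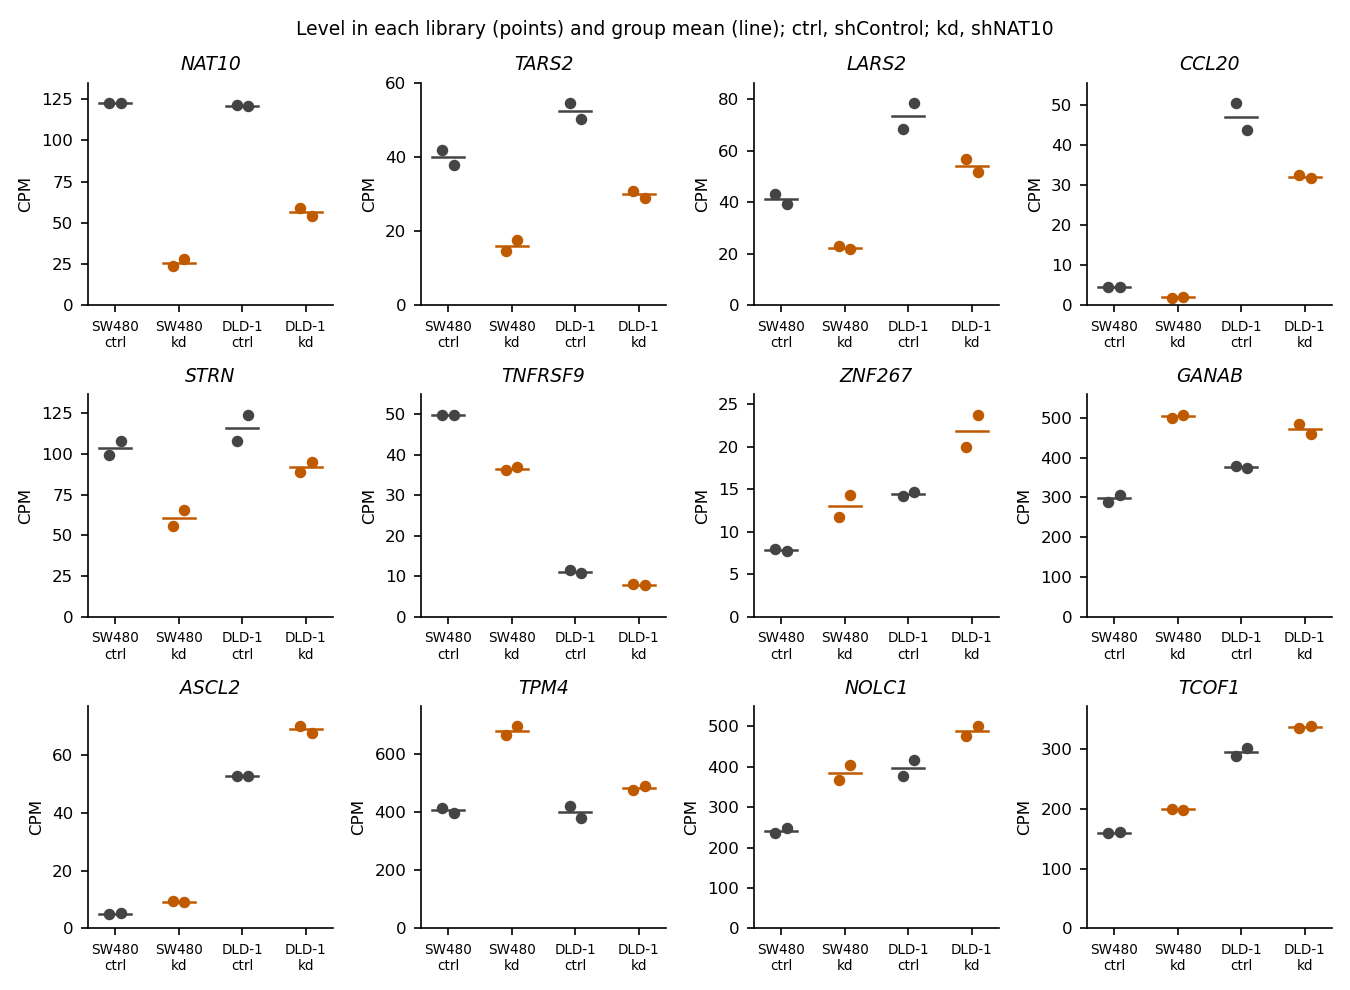
Level (CPM, axis from 0) of 12 named genes in each library (points, n = 2 a group) with the group mean (line), by cell line and hairpin. In every panel both knockdown points lie on one side of both control points within each line, with CCL20 lowest in SW480 and TNFRSF9 lowest in DLD-1.

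SLC19A2, a thiamine importer, had a log2 fold change of −0.43 (standard error 0.0853, adjusted p = 0.046, edgeR), −0.58 in SW480 alone and −0.27 in DLD-1 alone. MSMO1, a demethylating oxidase of cholesterol synthesis, had one of −0.39 (standard error 0.0716, adjusted p = 0.035, edgeR), −0.55 in SW480 alone and −0.23 in DLD-1 alone, whereas 4 of the 37 genes of cholesterol and fatty acid synthesis were higher and 2 lower at an unadjusted p under 0.05 and the list's median was 0.026. ATG16L1, needed to lipidate LC3 in autophagy, had one of −0.37 (standard error 0.0678, adjusted p = 0.031, edgeR), −0.50 in SW480 alone and −0.23 in DLD-1 alone, and MBNL2, a splicing regulator, one of −0.30 (standard error 0.0511, adjusted p = 0.024, edgeR), −0.34 in SW480 alone and −0.23 in DLD-1 alone. PGAP4, which modifies glycosylphosphatidylinositol anchors in the Golgi, measured 16.5 and 15.2 CPM in SW480 shControl against 10.5 and 11.8 CPM in SW480 shNAT10, and 3.82 and 3.73 CPM in DLD-1 shControl against 2.12 and 2.56 CPM in DLD-1 shNAT10. PGAP4 was 1 of 8 falls that were larger in DLD-1 than in SW480, at −0.56 (standard error 0.0993, adjusted p = 0.026, edgeR), −0.50 in SW480 alone and −0.69 in DLD-1 alone.

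For a few called genes 1 of the lines carried few reads. ITPR1, a calcium release channel of the endoplasmic reticulum, measured 32.9 and 32.4 CPM in SW480 shControl against 18.1 and 24.2 CPM in SW480 shNAT10, and 0.529 and 0.710 CPM in DLD-1 shControl against 0.294 and 0.525 CPM in DLD-1 shNAT10. ANKRD1, a YAP target, measured 247 and 215 CPM in SW480 shControl against 158 and 161 CPM in SW480 shNAT10, and 1.94 and 2.37 CPM in DLD-1 shControl against 1.65 and 1.77 CPM in DLD-1 shNAT10, and SLC2A3, the glucose transporter GLUT3, 489.7 and 500.2 CPM in SW480 shControl against 402 and 411 CPM in SW480 shNAT10, and 2.23 and 2.60 CPM in DLD-1 shControl against 1.88 and 1.77 CPM in DLD-1 shNAT10. The log2 fold changes were −0.63 (standard error 0.119, adjusted p = 0.038, edgeR) for ITPR1, −0.51 (standard error 0.0735, adjusted p = 0.0077, edgeR) for ANKRD1 and −0.29 (standard error 0.0592, adjusted p = 0.047, edgeR) for SLC2A3. In SW480 alone they were −0.62, −0.52 and −0.27, and in DLD-1 alone −0.61, −0.33 and −0.40. The DLD-1 values had unadjusted p of 0.29, 0.24 and 0.14 (edgeR), so a fall in DLD-1 is not shown for these genes. NLRP1, an inflammasome sensor, was below 1 CPM in all DLD-1 libraries and overlapped there, and CLDN11, a claudin, had 0 counts in all 4, which made it the gene without a sign in both lines. TRIM22, an interferon-induced ubiquitin ligase, was below 1 CPM in all SW480 libraries and overlapped there. In DLD-1 cells TRIM22 measured 40.5 and 38.5 CPM in DLD-1 shControl against 57.8 and 60 CPM in DLD-1 shNAT10. Requiring 10 counts in every group gave 30 genes lower and 25 higher.

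The largest rise was that of ZNF267, a zinc finger gene. It measured 7.97 and 7.73 CPM in SW480 shControl against 11.7 and 14.3 CPM in SW480 shNAT10, and 14.2 and 14.6 CPM in DLD-1 shControl against 19.96 and 23.8 CPM in DLD-1 shNAT10. ZNF267 had a log2 fold change of 0.66 (standard error 0.0904, adjusted p = 0.0069, edgeR), 0.74 in SW480 alone and 0.60 in DLD-1 alone. GANAB, the catalytic subunit of glucosidase II, which trims glycans on new glycoproteins in the endoplasmic reticulum, measured 289 and 306 CPM in SW480 shControl against 499 and 507 CPM in SW480 shNAT10, and 379 and 375 CPM in DLD-1 shControl against 484 and 458 CPM in DLD-1 shNAT10. GANAB had a log2 fold change of 0.54 (standard error 0.0744, adjusted p = 0.0069, edgeR), 0.77 in SW480 alone and 0.32 in DLD-1 alone. For both genes the shNAT10 and shControl libraries did not overlap within either line. GANAB was the only call by edgeR among 34 chaperones and folding factors of the endoplasmic reticulum (median 0.006). At an unadjusted p under 0.05, 6 of them were higher (17.6%, against 6.34% of all tested genes) and 4 lower (11.8%, against 6.81%). ZNF267 was the only call by edgeR among 401 tested genes named ZNF with a number (1 lower and 2 higher by DESeq2, median 0.026). At that unadjusted limit 32 were higher (7.98%, against 6.34% of all tested genes) and 16 lower (3.99%, against 6.81%).

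ASCL2, the transcription factor of Wnt-dependent intestinal stem cells, measured 4.81 and 5.15 CPM in SW480 shControl against 9.53 and 8.95 CPM in SW480 shNAT10, and 52.9 and 52.7 CPM in DLD-1 shControl against 70.02 and 67.8 CPM in DLD-1 shNAT10. ASCL2 had a log2 fold change of 0.52 (standard error 0.0852, adjusted p = 0.017, edgeR), 0.90 in SW480 alone and 0.39 in DLD-1 alone. The 4 shNAT10 libraries exceeded the shControl libraries of their line, at levels several times higher in DLD-1 than in SW480. Among 29 β-catenin target and stem cell genes it was the only call by edgeR, with 3 lower and 3 higher at an unadjusted p under 0.05 and a median of 0.016, and among 41 Wnt pathway components there was no call by edgeR with the line as a block, DESeq2 or limma, with 1 lower and 1 higher at that limit. With a replicate block or a length correction 1 Wnt component was called lower.

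NOLC1 and TCOF1 are nucleolar phosphoproteins that serve RNA polymerase I and ribosomal RNA modification. NOLC1 measured 236 and 248 CPM in SW480 shControl against 366 and 404 CPM in SW480 shNAT10, and 377 and 416 CPM in DLD-1 shControl against 477 and 500.4 CPM in DLD-1 shNAT10. NOLC1 had a log2 fold change of 0.48 (standard error 0.0719, adjusted p = 0.0099, edgeR), 0.68 in SW480 alone and 0.30 in DLD-1 alone. TCOF1 measured 159.8 and 161 CPM in SW480 shControl against 200.3 and 199 CPM in SW480 shNAT10, and 289 and 302 CPM in DLD-1 shControl against 336 and 339 CPM in DLD-1 shNAT10, and had a log2 fold change of 0.25 (standard error 0.0464, adjusted p = 0.034, edgeR), 0.32 in SW480 alone and 0.19 in DLD-1 alone. They were 2 of 20 tested genes of RNA polymerase I and rRNA transcription, and a further 1 was higher and 0 lower at an unadjusted p under 0.05. In related lists edgeR called 0 of 41 genes of small-subunit rRNA processing (6 higher and 1 lower at an unadjusted p under 0.05, 1 higher by DESeq2) and 0 of 37 assembly factors of the large subunit (7 higher and 1 lower, 1 each way by DESeq2). The medians of these lists were 0.024, 0.024 and 0.050, and stayed above 0 under every alternative. The adaptor of NAT10 on tRNA, THUMPD1, was not called and measured 54.3 and 53.8 CPM in SW480 shControl against 39.9 and 42.1 CPM in SW480 shNAT10, and 69.1 and 71.2 CPM in DLD-1 shControl against 62.7 and 72.5 CPM in DLD-1 shNAT10.

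TPM4, a tropomyosin of actin filaments, measured 416 and 398 CPM in SW480 shControl against 666 and 697 CPM in SW480 shNAT10, and 421 and 382 CPM in DLD-1 shControl against 479 and 492 CPM in DLD-1 shNAT10. TPM4 had a log2 fold change of 0.51 (standard error 0.0799, adjusted p = 0.014, edgeR), 0.76 in SW480 alone and 0.28 in DLD-1 alone. OGFR, the opioid growth factor receptor, measured 61.01 and 62.6 CPM in SW480 shControl against 105 and 91.3 CPM in SW480 shNAT10, and 163 and 164 CPM in DLD-1 shControl against 211 and 199 CPM in DLD-1 shNAT10, and PCNX3, a pecanex membrane protein, 61.6 and 59.8 CPM in SW480 shControl against 83.6 and 83.2 CPM in SW480 shNAT10, and 86.1 and 95.9 CPM in DLD-1 shControl against 126 and 116 CPM in DLD-1 shNAT10. Their log2 fold changes were 0.49 (standard error 0.0699, adjusted p = 0.0077, edgeR) and 0.43 (standard error 0.0545, adjusted p = 0.006, edgeR). SDC1, the epithelial heparan sulfate proteoglycan syndecan-1, measured 40.7 and 45.3 CPM in SW480 shControl against 57.7 and 53.7 CPM in SW480 shNAT10, and 86.4 and 93.7 CPM in DLD-1 shControl against 115 and 107 CPM in DLD-1 shNAT10, and had a log2 fold change of 0.33 (standard error 0.0585, adjusted p = 0.024, edgeR). It was the only call by edgeR among 35 integrins and adhesion receptors, of which 6 were lower and 1 higher at an unadjusted p under 0.05. ADAM15, a cell-surface metalloprotease, was at 0.43 (standard error 0.0688, adjusted p = 0.015, edgeR), and BCL7A, a subunit of the SWI/SNF remodeller, at 0.41 (standard error 0.0754, adjusted p = 0.031, edgeR). ZDHHC16, a palmitoyltransferase, was at 0.42 (standard error 0.0847, adjusted p = 0.048, edgeR), HABP4, a hyaluronan-binding protein, at 0.46 (standard error 0.0838, adjusted p = 0.031, edgeR), and KLHDC3, a receptor of cullin ligases, at 0.42 (standard error 0.0805, adjusted p = 0.04, edgeR). The spans of HABP4 and KLHDC3 overlap CDC14B and MEA1, so their reads may be shared.

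Calls outside the naming rule, chosen after their values were seen, included NLRP1, CLDN11, ULBP1, CNOT6, TSC22D3, CCNG2, MOSPD1, KLHL5, PHLDB2 and PLEKHA1 among the falls, and RPUSD1, MESD, RPUSD2, ANXA6, CHST14, GYS1, FOXP4, TCF3, AHSA1 and POLR2D among the rises. They include ULBP1, a ligand of the natural killer receptor NKG2D, which was at −0.41 (standard error 0.0776, adjusted p = 0.038, edgeR), −0.32 in SW480 alone and −0.51 in DLD-1 alone. They also include the pseudouridine synthase genes RPUSD1 (0.41) and RPUSD2 (0.37), and CNOT6, a deadenylase of the CCR4-NOT complex (−0.41), on the log2 scale of the blocked fit. The span of MESD overlaps CEMIP, so its reads may be shared.

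**Figure D3:**
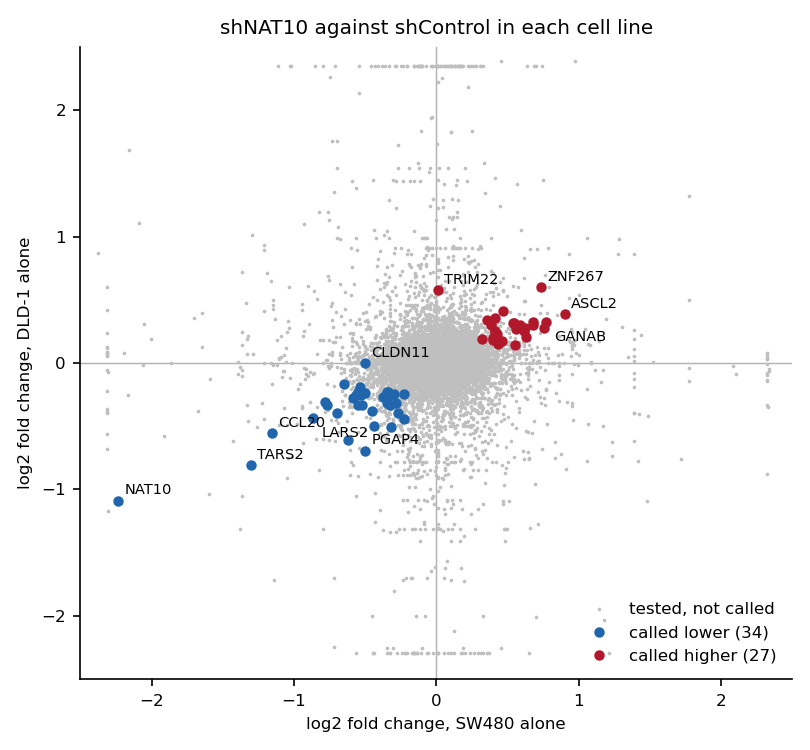
Log2 fold change in SW480 alone (horizontal) against DLD-1 alone (vertical) for the tested genes, with the 34 genes called lower in blue and the 27 called higher in red; 105 genes beyond 2.5 on either axis are not drawn. The called genes lie to the lower left and upper right of the origin, except CLDN11 on the horizontal axis, and TRIM22 lies close to the vertical axis.

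Each line was then fitted alone, and the genes called there were looked at in the libraries of the other line, with NAT10 left out. In SW480, 7 other genes were called lower, 0.0587% of tested genes with NAT10. All 7 were below 0 in DLD-1, against 48.6% of all tested genes. At an unadjusted p under 0.05, 6 of them were below 0 there, against 3.4% of all tested genes. The 7 were TARS2, LARS2, STRN, KLHL8, EPHA2, CNOT6 and NLRP1, with a median of −0.33 in DLD-1, against 0 for all tested genes. NLRP1 was below 1 CPM in DLD-1. Another 9 were called higher in SW480 (0.0661%), and 8 were above 0 in DLD-1, against 49.9% of all tested genes. At an unadjusted p under 0.05, 4 of them were above 0 there, against 3.86% of all tested genes. Those 9 were GANAB, TPM4, NOLC1, OGFR, ANXA6, RGS19, EMC6, TOMM22 and TIMM8B, of which TIMM8B was at 0.73 in SW480 and −0.03 in DLD-1. In DLD-1, 2 other genes were called lower (0.022% with NAT10), TARS2 and CCL20. Both were below 0 in SW480, against 49.4% of all tested genes, and both had an unadjusted p under 0.05 there, against 6.84%. The 9 called higher in DLD-1 (0.0661%) were ASCL2, PCNX3, TRIM22, TXNIP, NICOL1 and the interferon genes IFITM1, IFIT2, OAS2 and IFNL1. Of these 9, 6 were above 0 in SW480, against 50.3% of all tested genes. At an unadjusted p under 0.05, 3 of them were above 0 there, against 7.35% of all tested genes. The 6 include TRIM22, which was below 1 CPM in SW480. IFNL1, which was below 0 there, was also below 1 CPM in all SW480 libraries, so its sign carries little weight. Calls within 1 line were few by edgeR and their numbers changed with the setting. At the looser limits the study used (unadjusted p under 0.05 with a fold above 1.2 or below 0.83), 358 of 557 genes lower in SW480 (64.3%) were below 0 in DLD-1, against 48.6% of all tested genes, and 358 of 582 higher (61.5%) were above 0, against 49.9%. In the other direction, 99 of 170 genes lower in DLD-1 (58.2%) were below 0 in SW480, against 49.4%, and 117 of 184 higher (63.6%) were above 0, against 50.3%.

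Over the 48 function lists, which held 2093 of the tested genes, 15 members were called lower and 9 higher, spread over 21 lists. Over all 13619 tested genes, 34 (0.25%) were called lower and 27 (0.198%) higher. The 15 include NAT10 itself, and the lists were chosen with earlier results of these data known. Among lists with 20 or more tested genes, those with the largest share of members at an unadjusted p under 0.05 were the interferon-stimulated genes on the higher side and the integrated stress response on the lower side. Of 42 interferon-stimulated genes, 17 were higher and 0 lower at that limit (40.5%, against 6.34% of all tested genes). Only TRIM22 was called by edgeR, while DESeq2 called 3 and limma 0. The number higher at an unadjusted p under 0.05 was 5 without DLD-1 shNAT10 replicate 1, 6 without DLD-1 shControl replicate 2 and 7 with limma, and in the fit of 4 groups it was 11 with 2 lower. The list's median was 0.100 over both lines (0.025 to 0.14 over the alternatives), −0.069 in SW480 and 0.16 in DLD-1. Over the whole list 14 of the 42 were above 0 and 2 below 0 in both lines, while 25 were below 0 in SW480 and above 0 in DLD-1, with 0 the other way round, against 3086 and 3077 of the 13619 tested genes. IFITM1, an antiviral membrane protein, measured 47.9 and 45.4 CPM in SW480 shControl against 60.5 and 49.02 CPM in SW480 shNAT10, and 154 and 141 CPM in DLD-1 shControl against 202 and 190.3 CPM in DLD-1 shNAT10. It was above the controls in both lines, and its log2 fold change was 0.33 (standard error 0.0686, adjusted p = 0.054, edgeR). IFIT1, which binds viral RNA ends, measured 16.6 and 16.7 CPM in SW480 shControl against 18.2 and 19.4 CPM in SW480 shNAT10, and 721 and 707 CPM in DLD-1 shControl against 849.9 and 862 CPM in DLD-1 shNAT10, at a log2 fold change of 0.23 (standard error 0.0515, adjusted p = 0.067, edgeR). OAS2, an oligoadenylate synthase, measured 12.3 and 11.8 CPM in SW480 shControl against 10.2 and 12.05 CPM in SW480 shNAT10, and 299.9 and 289 CPM in DLD-1 shControl against 411 and 384 CPM in DLD-1 shNAT10, so that the SW480 groups overlapped at low levels. Summed over the list, SW480 libraries held 1453 to 1642 CPM and DLD-1 libraries 14624 to 16693 CPM. These 3 genes were chosen after their values were seen. For 20 genes of MHC class I presentation, 15 were above 0 and 0 below 0 in both lines, with a median of 0.097 (0.062 to 0.13 over the alternatives), 4 higher and 0 lower at an unadjusted p under 0.05, 0 calls by edgeR and 1 by DESeq2.

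Ribosomal protein genes were the plainest case of lists that the lines did not share. Of 79 cytosolic ribosomal protein genes, 77 were above 0 in SW480 and below 0 in DLD-1, against 22.6% of all tested genes, and 0 were the other way round. The blocked comparison called none, with 0 at an unadjusted p under 0.05 and 0 by DESeq2 or limma. The list's median was 0.17 in SW480 and −0.12 in DLD-1. Summed over the list, SW480 shControl held 81874 and 74492 CPM against 91841 and 82020 in SW480 shNAT10, while DLD-1 shControl held 96456 and 87139.8 CPM against 85022 and 85101 in DLD-1 shNAT10. The closest libraries of the groups were thus 82020 and 81874 CPM in SW480, a gap far smaller than the spread within each of these groups. In DLD-1 the closest were 87139.8 CPM in shControl and 85101 in shNAT10, a gap smaller than the spread within shControl. Subunits of oxidative phosphorylation showed the same signs in 59 of 76 genes, and mitochondrial ribosomal proteins in 45 of 77. The difference between the lines had an unadjusted p under 0.05 for 45 of the 79, 30 of the 76 and 14 of the 77 genes, against 9.38% of all tested genes, and passed adjustment for none (lowest adjusted p = 0.17, edgeR interaction).

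**Figure D4:**
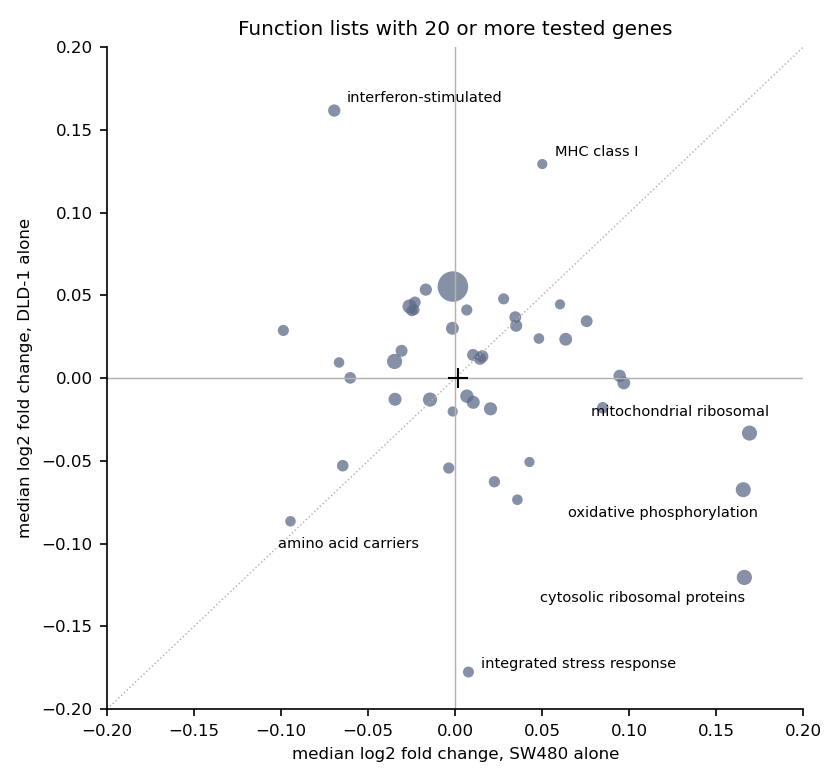
Median log2 fold change of each function list with 20 or more tested genes in SW480 alone (horizontal) and DLD-1 alone (vertical), with the point area growing with the number of genes and a cross for all tested genes. Cytosolic ribosomal proteins (0.17 and −0.12) and interferon-stimulated genes (−0.069 and 0.16) lie far from the dotted line of equal medians.

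The genes called lower and higher had different median GC contents. With GC content taken as the median over a gene's transcripts, the medians were 44.7% for the 34 falls, 56.1% for the 27 rises and 50.5% for all tested genes with a sequence. With a GC correction, 41 genes were lower and 36 higher, and 52 of the 61 remained called. The site of the shNAT10-1 seed, TCTTGAA, read on the transcript strand, was in the 3′UTR of 14 of the 33 falls other than NAT10 (42.4%), of 2 of the 27 rises (7.41%) and of 20.6% of all tested genes with a 3′UTR. The falls also had longer 3′UTRs, with medians of 1618 bases against 992 for the rises and 1331 for all tested genes. Among genes with a 3′UTR over 1331 bases the site was in 12 of 20 falls, 2 of 10 rises and 34.6% of all, and among the others in 2 of 13, 0 of 17 and 6.63%. TARS2, STRN, LARS2 and CCL20 were among the falls without it. For the shNAT10-2 seed, TAGATGA, the shares were 5 of 33 (15.2%), 2 of 27 (7.41%) and 10.6%. Of genes with a run of 14 or more bases of the shNAT10-1 target, 7 were tested and 3 were called lower, NAT10, TARS2 and STRN. The part of these matches in the falls was not tested.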

How the data were processed

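The authors deposited estimated counts per RefSeq transcript from poly(A)-selected RNA, sequenced as single-end 50-base reads (BGISEQ-500). The submitters' processing notes name HISAT2 2.0.4, Bowtie2 2.2.5, RSEM 1.2.12 and hg38, without their roles, and the strand setting is not given in the sources used here. The deposited FPKM values and the authors' group means were not used here. Estimated counts were summed over 78953 transcripts to 17309 Entrez genes and rounded, and 17190 genes were given RefSeq symbols. After filterByExpr (minimum count 10, total 15) and TMM, edgeR 4.0.16 (R 4.3.3) fitted line and hairpin (5 residual degrees of freedom), each line was also fitted alone on its 4 libraries, and the difference between lines was tested as an interaction in a fit of the 4 groups. Standard errors are the log2 fold change over the root of its F statistic. Alternatives were upper-quartile scaling, DESeq2 1.42.0, limma 3.58.1, filters of 1 and 10 counts, 4 groups, a replicate block, GC and length corrections, and each library left out. Sequences came from GENCODE transcripts of GRCh38. The members and lists were chosen with earlier results of these data known. Named genes were NAT10, the 12 largest falls and 12 largest rises among called genes whose libraries lay apart in both lines, called members of function lists (at most 4 each way) and called genes with the longest hairpin runs. The blocked fit was tried on simulated data, with 200 of 13619 genes changed equally in both lines. It recovered 85% of genes at a true log2 fold change of 0.5 and 92% at 1. False genes made up 5.85% of its calls. In the real data most called effects were larger in SW480, a setting that was not simulated. Of the called genes, 1 is not named here.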

Additional observations from a re-analysis of the deposited data

Results flagged for a closer look

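The effect on NAT10 differed between the cell lines by a test of the difference itself: the log2 fold change was −2.24 in SW480 and −1.09 in DLD-1, a difference of −1.16 (SW480 minus DLD-1, adjusted p = 0.0015, edgeR interaction), with all 4 shNAT10 libraries below all 4 shControl libraries. No group held the 4 samples needed to look for a single sample far from the others.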

How the results depend on the processing

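All 61 genes kept their direction under every alternative in which they were tested, but the number of calls moved. The 34 genes lower and 27 higher became 84 and 82 with DESeq2, 8 and 6 with limma, 4 and 1 with a filter of 1 count, and 77 and 62 as the mean of both lines in a fit of 4 groups; with a length correction 57 were lower. Of those with libraries apart in both lines (32 and 26), the numbers were 82 and 77, 8 and 6, 3 and 1, and 75 and 57 under the same 4 settings, with 54 lower under the length correction. Called list members (15 lower, 9 higher) became 26 and 24, 4 and 4, 2 and 0, and 23 and 18, with 14 higher under the GC correction.

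Leaving out 1 library at a time gave 2 to 32 genes lower and 0 to 37 higher, 2 to 30 and 0 to 29 of them with libraries apart, and 2 to 14 and 0 to 12 list members. Leave-outs of 1 library also gave 0 to 370 genes differing between the lines (1 with all libraries, 21 by DESeq2) and a NAT10 difference between −1.29 and −1.04.

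Genes called in SW480 alone that had the same sign in DLD-1 numbered 7 lower and 8 higher, against 358 and 358 at the study's limits, 12 and 16 with upper-quartile scaling, 53 and 52 with DESeq2, and 0 to 17 and 0 to 16 with a library left out. Genes called in DLD-1 alone that had the same sign in SW480 numbered 2 and 6, against 99 and 117, 7 and 13, 8 and 13, and 0 to 53 and 0 to 60.

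The replicate numbers were not taken to pair the libraries: no label says that a number marks a shared batch, and the deviations of same-numbered libraries correlated at 0.13 in SW480 and 0.036 in DLD-1, with 2 pairs a line, too few to show whether they were paired. With a replicate block, 72 genes were lower and 52 higher, 65 and 46 of them with libraries apart, 23 list members were lower and 112 genes differed between lines. Within a line, a replicate block leaves fewer residual degrees of freedom than the main fit of its 4 libraries. With that block, the counts of genes called in 1 line with the same sign in the other were 580 lower and 634 higher for SW480 and 51 and 55 for DLD-1. The cause of these changes was not tested. Genes of few reads in 1 line have imprecise fold changes there.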
